A study of Mus musculus with 2 samples.

Results

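Binding of Hnf4a was examined at the loci of 8 transcription factors that establish and maintain hepatocyte identity: Hnf4a itself, Foxa1, Foxa2, Foxa3, Cebpa, Cebpb, Onecut1 and Prox1. The genes were chosen by name, with earlier results of these data known. Each locus was taken as the gene in the RefSeq table of GRCm38.p6 plus 50 kb beyond both ends. They are 8 of 21887 protein-coding genes on the standard chromosomes. Within these 8 loci lay 15 of the 21283 peak summits of replicate 1 and 20 of the 24097 of replicate 2, or 17.5 ± 3.54 (SD, n = 2). A site was called shared where a summit of each replicate lay within 100 bp of the other, each being the other's nearest.

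The cells were iHepCs, hepatocyte-like cells reprogrammed from fibroblasts of wild-type C57BL/6J embryos with retroviruses that express Foxa2 and Hnf4a. Both replicates were grown with insulin, nicotinamide, 100 nM dexamethasone, a synthetic glucocorticoid, and 20 ng/ml each of the growth factors HGF and EGF. There was 1 group of 2 replicates and no control group was analysed here, so no comparison between conditions could be made. The peak names give both libraries the same lot number, and whether the replicates came from separate reprogramming experiments is not stated there. Hnf4a was mapped in situ by ChIL-seq, an assay on fixed cells in which an antibody carries a probe to the bound protein, Tn5 tags the DNA beside it, and RNA copied from the tagged sites is sequenced. The labels give the cell type as fibroblast, the cell of origin. The assay measures no RNA, so the hepatocyte-like state of the cells could not be checked against marker expression. Summits are single bases of mm10, each with a score that the authors deposited. No header names the score, which was read as −log10 q because its lowest values lie just above the 2 that the q threshold of 0.01 in the peak names gives. Scores started at 2.04 in replicate 1 and 2.01 in replicate 2, with list medians of 7.32 and 6.67. Read depth behind the summits is unknown.

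Hepatocyte transcription factors form a densely connected network in which members bind the regulatory regions of one another and of themselves. Foxa proteins are pioneer factors that bind compacted chromatin, Hnf4a is a nuclear receptor that binds direct repeats as a homodimer, and C/EBP factors are basic leucine zipper proteins that drive metabolic gene expression. Hnf4a is transcribed from alternative promoters, of which the downstream one, P1, is the main one in adult liver, and the upstream one, P2, is used in the fetal liver and in the pancreas.

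The promoter windows inside the loci that held a summit were those of 3 genes, and they are shown for that reason. The RefSeq promoter sequences of GRCm38.p6 run from 250 bases before to 50 after a start, 5′ to 3′ on the gene's strand, and capitals mark the summit or summits with 10 bases on either side. The Fitm2 promoter, chr2:163472580-163472879 on the minus strand, held a summit of both replicates. The Cebpa promoter, chr7:35119043-35119342 on the plus strand, held a summit of replicate 2. The Mypop promoter, chr7:18990995-18991294 on the plus strand and inside the Foxa3 locus, held a summit of replicate 1.
Fitm2: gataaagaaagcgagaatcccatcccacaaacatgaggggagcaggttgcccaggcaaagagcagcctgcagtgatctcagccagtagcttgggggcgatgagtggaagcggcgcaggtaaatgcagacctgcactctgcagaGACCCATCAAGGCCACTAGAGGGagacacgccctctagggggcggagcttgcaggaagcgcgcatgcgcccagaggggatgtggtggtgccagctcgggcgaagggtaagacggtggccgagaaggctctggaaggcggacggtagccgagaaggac
Cebpa: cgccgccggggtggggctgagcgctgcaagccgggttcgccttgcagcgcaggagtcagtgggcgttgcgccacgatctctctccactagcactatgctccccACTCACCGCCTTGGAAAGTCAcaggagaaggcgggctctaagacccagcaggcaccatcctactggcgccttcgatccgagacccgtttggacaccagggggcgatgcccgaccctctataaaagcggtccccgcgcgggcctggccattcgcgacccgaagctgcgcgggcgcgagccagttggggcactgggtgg
Mypop: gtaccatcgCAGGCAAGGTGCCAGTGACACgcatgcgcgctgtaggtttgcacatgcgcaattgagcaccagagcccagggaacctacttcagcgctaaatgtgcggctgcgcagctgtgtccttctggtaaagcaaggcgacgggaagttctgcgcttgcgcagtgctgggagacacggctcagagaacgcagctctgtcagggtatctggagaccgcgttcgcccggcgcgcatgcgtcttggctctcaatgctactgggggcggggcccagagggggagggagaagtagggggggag

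In the Fitm2 promoter the summits stood 95 bp (replicate 1) and 97 bp (replicate 2) before the start. In the Cebpa promoter the summit stood 137 bp before the start, and in the Mypop promoter 231 bp before it. The letters of 9 motifs were searched on both strands. The loose HNF4 pattern CAAAGNNCA, which also matches the stricter CAAAGTCCA, was found once, in the Fitm2 promoter at 195 bp before the start, outside the capitals. It occurs in 6.36% of all 32851 promoters of this table. A TATAAA match stood 30 bp before the Cebpa start and occurs in 13.6% of promoters. The other patterns were absent from these 3 windows. They were CAAAGTCCA (0.475% of promoters), the forkhead patterns TGTTTAC (3.65%) and TGTTTNC (20.5%, which also matches the first), the C/EBP pattern TTGCNNAA (10.8%), the palindromic HNF1 pattern (0.00913%), the Onecut pattern ATTGATT (2.86%) and CCAAT (37.4%). A match or its absence describes only these letters in these windows.

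Shared sites were found at 3 of the 8 loci: 2 each at Hnf4a and Cebpa and 1 at Foxa3. Foxa1 and Foxa2 had no summit of either replicate, and Cebpb, Onecut1 and Prox1 had summits but no shared site. Among all protein-coding genes, 47.9% had a shared site within 50 kb, so 3 of 8 (37.5%) is not above the background. At least 2 shared sites were found at 2 of 8 loci, against 20.9% of all genes. No summit of either replicate was found at 2 of 8, against 20.6% of all genes. Replicate 1 had a summit at 5 of 8 loci (62.5%), against 70.2% of all genes, and replicate 2 at 6 of 8 (75%), against 73.4%. The count of loci with a shared site moved with the window and with a cut by score rank, as did the background. The count was 2 of 8 within 10 kb, against 26% of all genes, and 5 of 8 within 100 kb, against 62.6%. With the top 10000 summits of each list it was 1 of 8, against 32%. A score of 5 or more left it at 3 of 8, and no background was computed for that setting.

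**Figure D1:**
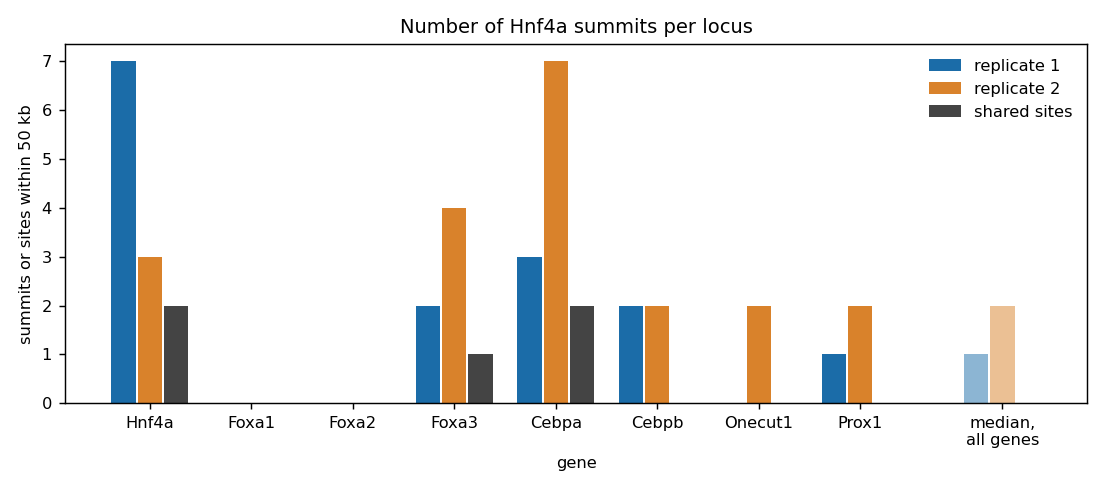
Bars give the number of summits of replicate 1 (blue), summits of replicate 2 (orange) and shared sites (grey) within 50 kb of each of the 8 genes, with the medians over all 21887 protein-coding genes at the right. Hnf4a has 7 summits in replicate 1 and 3 in replicate 2, Cebpa has 3 and 7, and Foxa1 and Foxa2 have none.

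The median locus had 1.5 summits in replicate 1 and 2 in replicate 2, beside medians of 1 and 2 over all genes, and the median number of shared sites was 0 in both cases. Locus length was similar, with medians of 108.8 kb for the 8 loci and 117.2 kb for all genes. Summed over the 972.5 kb of the 8 loci there were 0.514 shared sites per 100 kb, beside 0.556 over the windows of all genes. The single lists gave 1.54 summits per 100 kb in replicate 1 and 2.06 in replicate 2, beside 1.27 and 1.38 over all gene windows. Windows of neighbouring genes overlap, so summits near dense genes count several times in these totals.

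Agreement between replicates at the 8 loci was low in number and imprecise. Shared summits were 5 of 15 in replicate 1 (33.3%, 95% exact binomial interval 11.8 to 61.6) and 5 of 20 in replicate 2 (25%, 8.66 to 49.1). Over the whole lists they were 43.2% (42.5 to 43.9) and 38.2% (37.5 to 38.8), both inside the intervals of the 8 loci. These intervals cover counting error only and treat summits as independent. Many of the summits lay at Hnf4a and Cebpa, and the same 5 pairs enter both shares, so the intervals may be too narrow. The shared summits at the loci stood 0, 2, 11, 46 and 83 bp apart. The next pairs, just outside the limit, were 144 bp apart at Hnf4a and 170 bp apart at Cebpb, and then 993 bp apart at Cebpa. The pairs 144 and 170 bp apart included the best-scored summits of either list at these loci and, in replicate 1, the best-scored summit at Cebpb. With 200 bp allowed, the loci would have 7 shared sites, and Cebpb and Hnf4a would each gain 1. In the whole lists the same change adds sites too, giving 11041 pairs against 9193.

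Hnf4a, at 163506811 to 163572907 on chromosome 2 (plus strand), had summits on the upstream side and inside the gene and none downstream of it. The summits of its own locus that both replicates placed at the same site lay at the neighbouring gene Fitm2, which encodes an endoplasmic reticulum protein of lipid droplet formation. One site was at 163472724 in replicate 1 (score 6.60) and at 163472726 in replicate 2 (6.70). The other was at 163473262 in both replicates, with a score of 4.56 in replicate 1 and 9.62 in replicate 2. They lay 34087 and 33549 bp upstream of Hnf4a in replicate 1, but only 95 and 633 bp from Fitm2. The first also falls inside the plus-strand lncRNA gene 2310001K24Rik, 179 bp after its start in replicate 1 and 181 bp in replicate 2. The first site scored alike in both lists, while the second differed by 1.08 on the log2 scale (replicate 2 over replicate 1).

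The best-scored summits of all 8 loci lay between Fitm2 and the Hnf4a gene. They were at 163494278 in replicate 1, with a score of 22.7, and at 163494422 in replicate 2, with a score of 21.0. Both stood at percentile 96.0 of their own list, ranking 849 of 21283 and 965 of 24097. They lie 12533 and 12389 bp upstream of the Hnf4a gene, 2839 and 2983 bp inside R3hdml, and within Hnf4aos, an antisense lncRNA gene that overlaps Hnf4a. At 144 bp apart they do not meet the rule for a shared site.

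Inside the Hnf4a gene, replicate 1 had 4 summits and replicate 2 none. The 4 were at 163514342 (score 12.4), 163515778 (7.38), 163530796 (3.43) and 163540760 (6.08). The first 2 lay 7485 and 8921 bp after the upstream start of transcription in the promoter table. The last lay 6395 bp before the downstream start, which is 40298 bp from the upstream one. The nearest replicate 2 summit to any of the 4 was 19920 bp away, so the summits called in this stretch differ between the replicates. Neither start had a summit within 1 kb. A summit inside the gene was present at 1 of 8 genes in replicate 1, against 26.3% of all genes, and at 2 of 8 in replicate 2 (Cebpb and Prox1), against 28.4%. No member had a shared site inside the gene, against 13.5% of all genes. At least 4 replicate 1 summits and no replicate 2 summit inside a gene, a pattern singled out after the values were seen, occurred in 4 genes (0.0183%): Hnf4a, Dab1, Kdm3a and Rai1. With 7 summits in its window of 166.1 kb, Hnf4a exceeded 97.3% of genes in replicate 1. With 3 in replicate 2 it exceeded 66.4%.

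**Figure D2:**
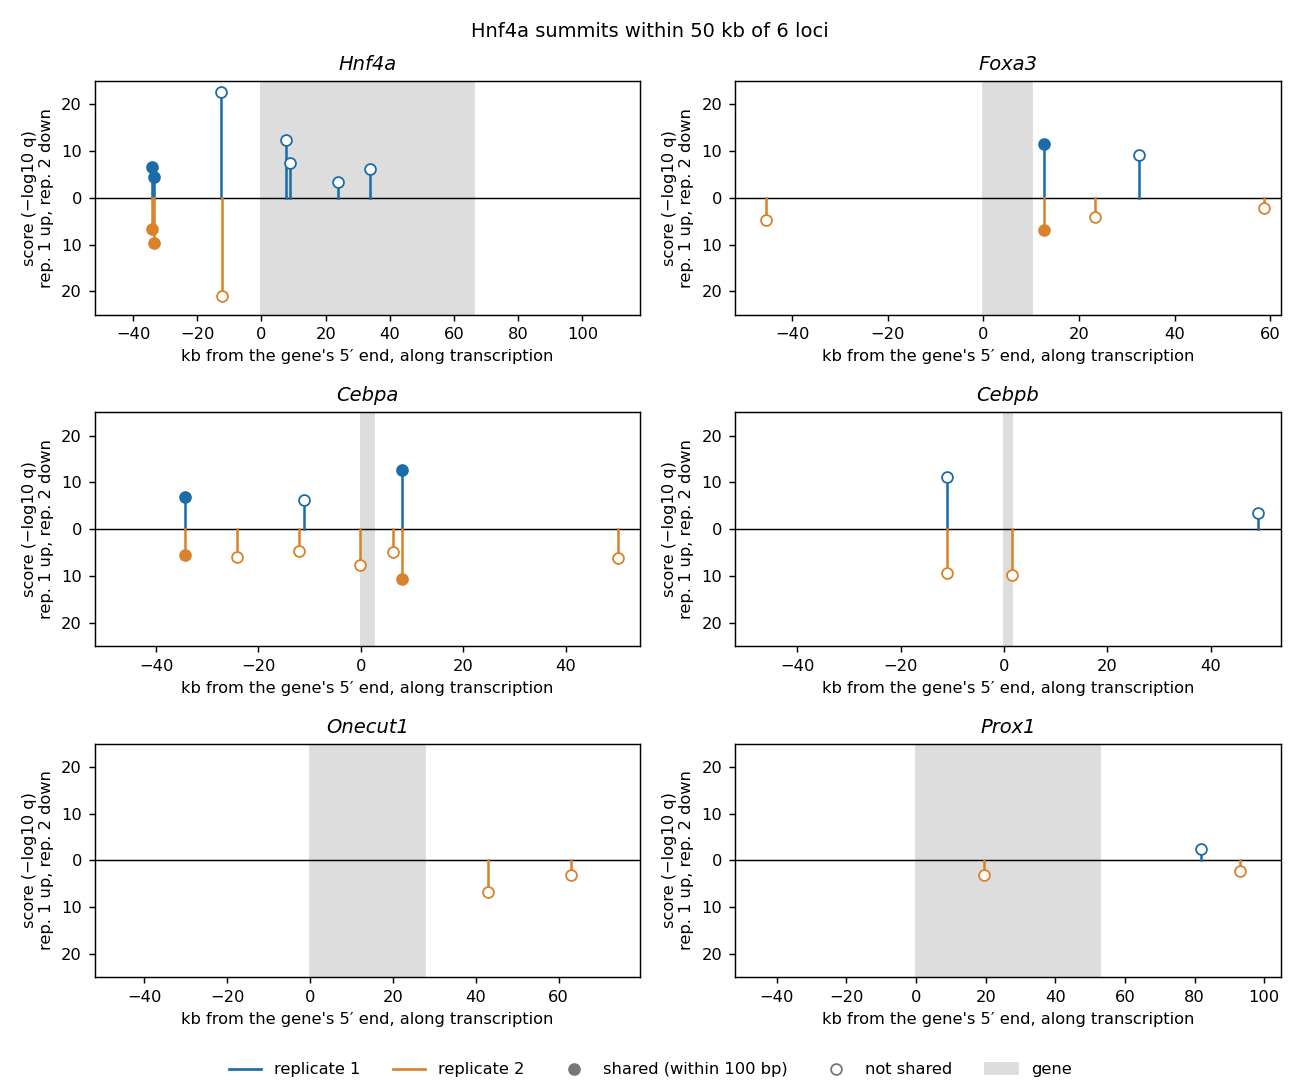
Each panel shows 1 locus, with the distance from the gene's 5′ end along the direction of transcription on the horizontal axis (kb) and the summit score (−log10 q) on the vertical axis, replicate 1 upward in blue and replicate 2 downward in orange; grey marks the gene, filled points are shared sites and open points are not. The tallest stems, 22.7 and 21.0 upstream of Hnf4a, face each other 144 bp apart, while the 4 replicate 1 summits inside Hnf4a have no orange stem below them.

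The retroviral Hnf4a and Foxa2 copies share transcript sequence with the endogenous genes, so reads from the integrated copies and from the exons of the genes cannot be told apart. All 4 summits inside Hnf4a lie between the upstream and the downstream start, from 6395 to 32813 bp before the downstream one. The gene table used has no exon positions, and whether any of these summits lies in an exon was not tested. At Foxa2, the other introduced gene, no summit was present inside the gene or within 50 kb of it in either replicate.

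Among the Foxa genes, only Foxa3 had summits within 50 kb, and its best-scored site was the nearest to it of any. Foxa3 lies at 19013283 to 19023539 on chromosome 7 (minus strand), and the shared site stood at 19010889 in replicate 1 (score 11.4) and 19010843 in replicate 2 (6.94). This is 2394 and 2440 bp downstream of the gene, and no other protein-coding gene was nearer. The score was at percentile 77.5 of its list in replicate 1 and 52.8 in replicate 2. The other summits of the Foxa3 locus each belonged to 1 replicate and lay nearer to other genes. In replicate 1 a summit at 18991014 (9.15) fell 226 bp from Mypop, a Myb-related transcription factor gene, in the promoter shown above. In replicate 2, summits stood inside Mypop at 19000089 (4.21), inside Rsph6a, a radial spoke gene, at 19068985 (4.82), and inside Nova2, a neuronal splicing regulator, at 18964770 (2.25). The last is 48513 bp from Foxa3, just within the 50 kb limit, while the first replicate 2 summit beyond the limit is 52511 bp away.

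Foxa1 lies at 57540628 to 57548029 on chromosome 12 and Foxa2 at 148042877 to 148046969 on chromosome 2, both on the minus strand. The summits nearest to Foxa1 were 62131 bp away in replicate 1 (11.1) and 52556 bp away in replicate 2 (9.26). The first of these was part of the shared site nearest to the gene, at 57478497 in replicate 1 and 57478495 in replicate 2 (11.5), which lies nearer to Mipol1. Foxa1 is thus empty at 50 kb by a narrow margin in replicate 2, and by a wider one in replicate 1 and for shared sites. Foxa2 was more distant from any signal, with its nearest summits at 75474 bp in replicate 1 (9.04) and 86265 bp in replicate 2 (8.50) and its nearest shared site 138051 bp away (8.45 and 11.6). The neighbouring lncRNA gene 9030622O22Rik had no summit inside it in either replicate.

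Cebpa, which encodes a factor that promotes hepatocyte differentiation and restrains proliferation, had the best-scored shared site of the 8 loci. The gene is 2636 bp long, at 35119293 to 35121928 on chromosome 7 (plus strand). The site was at 35127351 in replicate 1 (score 12.6) and at 35127362 in replicate 2 (10.8), which is 5423 and 5434 bp downstream of the gene and 8058 and 8069 bp after its start. It reached percentile 81.7 in replicate 1 and 79.1 in replicate 2. The second shared site was weaker, at 35084948 in replicate 1 (6.83) and 35084865 in replicate 2 (5.46), and lay 34345 bp upstream in replicate 1. Its nearest protein-coding gene was Gm45095, 27303 bp away, and the same site falls within 50 kb of Cebpg, a neighbouring gene of the C/EBP family.

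Replicate 2 placed further summits around Cebpa that replicate 1 did not match within 100 bp. The one in the promoter shown above, at 35119156, scored 7.77, and the nearest replicate 1 summit was 8195 bp away. The others were at 35095046 (6.04), 35107202 (4.61), 35125578 (4.86) and 35169467 (6.15), the last of them 47539 bp downstream and nearer to the amino acid transporter gene Slc7a10. A replicate 1 summit at 35108195 (6.32) stood 993 bp from the replicate 2 summit at 35107202. With 7 replicate 2 summits, Cebpa exceeded 96.7% of all genes, and with 3 replicate 1 summits it exceeded 69.6%. Hnf4a and Cebpa thus had opposite imbalances, 7 against 3 and 3 against 7, and no test of a difference between the lists was possible with 1 library each.

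Cebpb encodes a C/EBP factor induced in acute-phase responses and regeneration of the liver. It lies at 167688915 to 167690432 on chromosome 2 (plus strand). Upstream of it, replicate 1 had a summit at 167677976 (11.2) and replicate 2 at 167677806 (9.46), 10939 and 11109 bp from the gene and 170 bp from each other. Both ranked in the upper part of their lists, at percentiles 76.6 and 72.8. Replicate 2 had a second summit inside Cebpb at 167690373 (9.90), 59 bp from the 3′ end, and the nearest replicate 1 summit to it was 12397 bp away. The remaining replicate 1 summit, at 167737950, scored 3.43 and lay 47518 bp downstream.

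**Figure D3:**
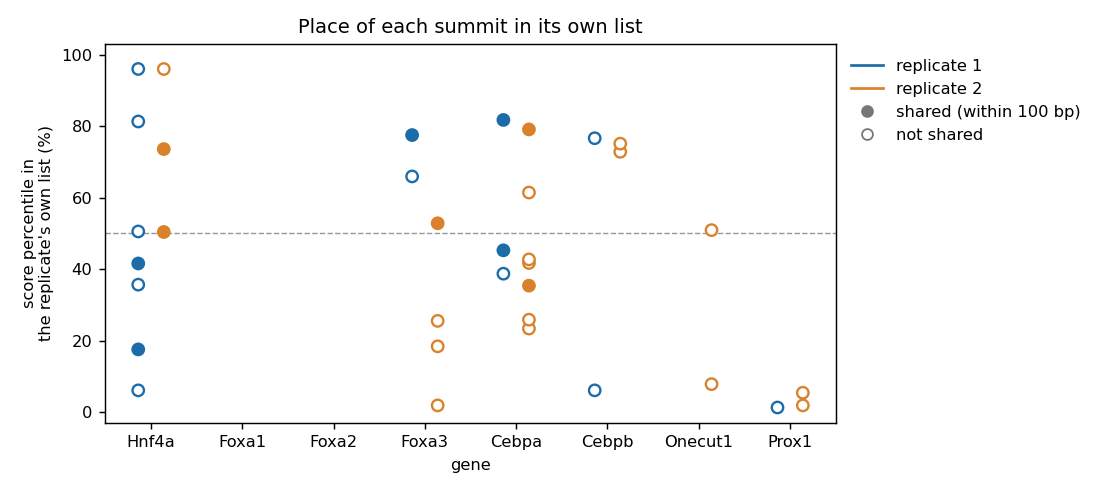
Points give the percentile of each summit's score within the list of its own replicate (%), with 100 the best, for replicate 1 (blue) and replicate 2 (orange); filled points are shared sites and the dashed line is the middle of the list. Summits at Prox1 lie at the bottom of both lists, whereas the best summits at Hnf4a stand at 96.0 in both.

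Onecut1 and Prox1 had only low or unmatched signal. Onecut1, a homeodomain factor of liver and bile duct development, lies at 74861921 to 74889648 on chromosome 9 (plus strand) and had no replicate 1 summit within 50 kb. The nearest, at 54534 bp, scored 2.44. Replicate 2 had summits at 74904971 (6.76) and 74924991 (3.19), which lay 15323 and 35343 bp downstream, and the replicate 1 summit nearest to the first was 97584 bp from it. Prox1, a homeodomain factor needed for hepatoblast migration and liver growth, lies at 190118035 to 190170827 on chromosome 1 (minus strand). Its summits scored 2.44 in replicate 1, at 190088923, and 2.25 and 3.12 in replicate 2, at 190077787 and 190151434. All 3 stood between percentiles 1.4 and 5.4 of their lists, just above the q threshold, and the last of them lay inside the gene. The shared site nearest to Prox1 was 157999 bp away, nearer to the lysine methyltransferase gene Smyd2, and scored 35.8 in replicate 1 and 43.2 in replicate 2.

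Measured by distance to the nearest shared site, the 8 genes ran in the order Foxa3 (2394 bp), Cebpa (5423 bp), Hnf4a (33549 bp), Foxa1 (62131 bp), Onecut1 (71466 bp), Cebpb (109881 bp), Foxa2 (138051 bp) and Prox1 (157999 bp). Their median was 66799 bp, beside 55325 bp over all 21887 genes. Of all genes, 20.3% had a shared site nearer than Foxa3 did and 72.2% nearer than Prox1 did. The genes thus spread over much of the range of all genes. Only Foxa3 and Cebpa were themselves the nearest protein-coding gene to a shared site within 50 kb, with 1 such site each. Beyond 50 kb, Foxa2, Cebpb and Onecut1 were the nearest protein-coding gene to their nearest shared site, while Foxa1 and Prox1 were not.

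**Figure D4:**
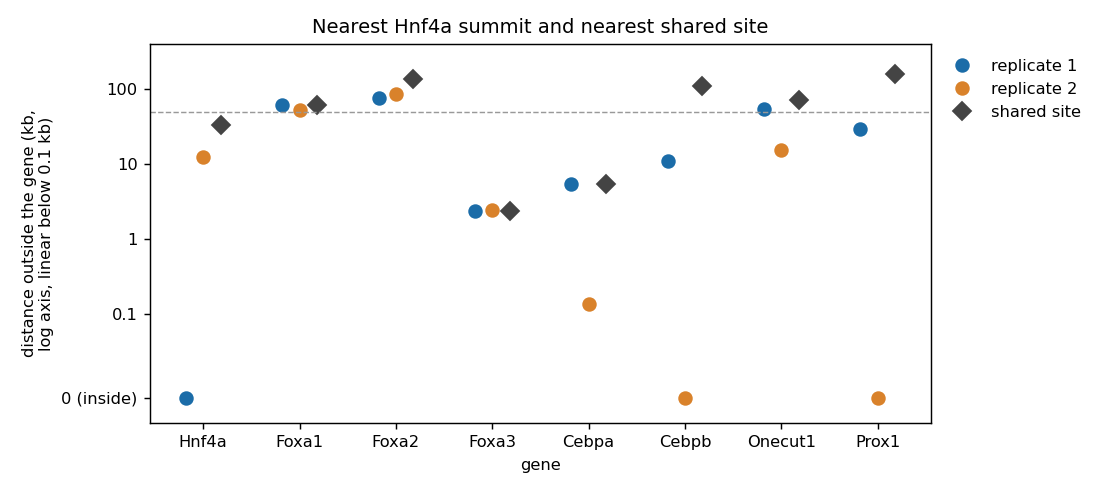
Points give the distance outside each gene (kb, log axis that is linear below 0.1 kb, with 0 for a position inside the gene) of the nearest summit of replicate 1 (blue), of replicate 2 (orange) and of the nearest shared site (grey diamonds); the dashed line is 50 kb. Foxa1, Foxa2, Cebpb, Onecut1 and Prox1 have their shared site above the line.

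The scores of the summits at the 8 loci were spread around the middle of the lists. Their median was 6.83 in replicate 1, beside 7.32 for the whole list, and 6.10 in replicate 2, beside 6.67. Of the summits, 7 of 15 in replicate 1 and 9 of 20 in replicate 2 were above the list median. Relative to the gene, replicate 1 had 4 summits inside, 6 upstream and 5 downstream, and replicate 2 had 2 inside, 9 upstream and 9 downstream. The member was the nearest protein-coding gene to 10 of 15 summits in replicate 1 and 11 of 20 in replicate 2. The same counts of place and nearest gene were not made over all gene windows, so they describe these loci only.

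The 8 genes are part of a larger liver regulatory network. Of the 8 genes, 3 had a shared site within 50 kb, beside 19 of 30 further liver regulators (63.3%) and 47.9% of all genes. The median number of shared sites was 0 over the 8 genes, 1 over the further regulators and 0 over all genes. Nr5a2, a nuclear receptor that controls bile acid synthesis, had 2 shared sites, both inside the gene, the better with 8.21 and 14.2. The best-ranked sites lay at Hlf (16.8 and 16.4, but 40890 bp from the gene and nearer to Mmd) and Creb3l3 (16.4 and 24.6, 1 of 5 shared sites there, the best of them nearer to Map2k2). The bile acid receptor Nr1h4 (16.0 and 15.0) and the xenobiotic receptor Nr1i2 (15.2 and 13.2) had theirs inside the gene. That of Nr1i3 (13.8 and 14.4) was nearer to Apoa2, and that of Dbp (11.6 and 10.1) to Fam83e. Gata6 had a site 36590 bp away (19.0 and 11.9), and Cebpd 1 that was nearer to Mzt2 (9.11 and 16.0). The regulators without a shared site included Hnf4g, the paralogue of Hnf4a, with no summit in either replicate, and Hhex, Gata4 and Rxra, which had summits in 1 or both.

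Regulators of other cell types were counted in the same way. Of 20 regulators of fibroblasts and mesenchyme, the cells of origin, 14 had one (70%), and of 20 neural regulators 2 did (10%). The best-ranked sites of the fibroblast list were at Prrx2 (69.7 in replicate 1 and 71.7 in replicate 2, nearer to Ntmt1) and at Foxc2 and Foxf1, whose windows hold the same site (23.4 and 18.03, nearer to Mthfsd). Next in rank were a site 237 bp from Osr2 (25.5 and 17.5) and a site inside Prrx1 (25.9 and 13.8), each nearest to the regulator itself. The best-ranked sites of the neural list were at Myt1l (13.6 and 14.1) and Neurod1 (9.42 and 8.67). Median locus lengths were 108.8 kb for the 8 genes, 120.4 kb for the further liver regulators, 121.7 kb for the fibroblast list and 105.5 kb for the neural list, so the list with the fewest sites also had the shortest loci. No test was run on these shares, and the part of locus length in them was not tested. The 8 genes and the further lists were chosen with earlier results of these data known, so their shares are not independent of the data.

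**Figure D5:**
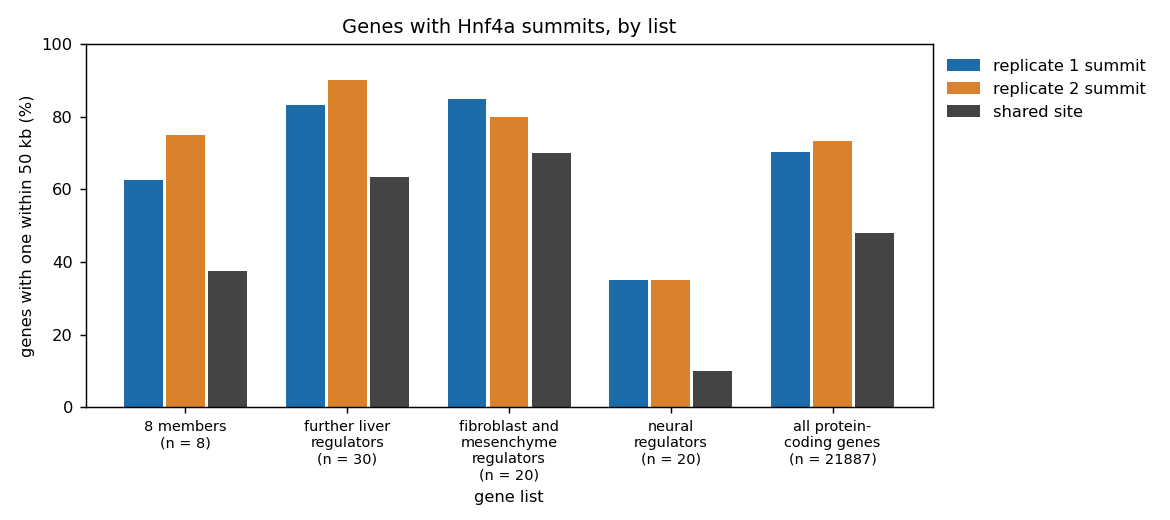
Bars give the percentage of genes with a replicate 1 summit (blue), a replicate 2 summit (orange) or a shared site (grey) within 50 kb, for the 8 genes, 3 further lists and all 21887 protein-coding genes; numbers of genes stand under the names. The share with a shared site is 37.5% for the 8 genes, 63.3%, 70% and 10% for the further liver, fibroblast and neural lists, and 47.9% for all genes. The lists were chosen with earlier results of these data known.

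Genes whose window counts were most like those of the 2 loci with the most shared sites were picked by the summed differences in 3 counts (shared sites, replicate 1 summits and replicate 2 summits) over the 2 samples. For Hnf4a, 6 genes over 1 Mb away had all 3 counts equal, and Prx and A630095N17Rik were among the 3 nearest in window length. For Cebpa 13 genes did, with Myo1a, Arid3a and Gm40363 the nearest in length. Their counts were therefore 2 shared sites with 7 and 3 summits, and 2 shared sites with 3 and 7.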

How the data were processed

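Per the submitters' processing notes, the reads were processed with fastp (0.23.4), HISAT2 (2.0.5) and MACS2 (2.2.9.1) on mm10. The deposited column 5 was read as the authors' −log10 q-value per 1-bp summit, from its lowest values and the q threshold of 0.01 in the peak names. The files have no header that names it, so a −log10 p-value is not excluded, and ranks within a list do not depend on this. The sources used here state no control library, duplicate removal or read depth.

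Positions were counted from 1. Summits of both replicates that were each other's nearest and within 100 bp were paired. Genes came from RefSeq (GRCm38.p6, which mm10 is built on), and strand and starts from its promoter table, which matched all 8 members and 17492 of 21887 genes. One group allows no test between conditions. The 8 genes and further lists were chosen with earlier results of these data known.

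All sites of the 8 genes were named, with up to 8 further regulators and 3 genes of each other list by the worse rank of their best site, Nr5a2 always, and genes with like counts. Values of some genes that this rule names are not reported here. Others named were chosen after their values were seen. Alternatives changed the window, sharing distance, score threshold, replicates and gene assignment. Scripts were tested on simulated data, with Python 3.11.15, numpy 2.4.6 and pandas 2.3.3.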

Additional observations from a re-analysis of the deposited data

How the results depend on the processing

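The main counts were 3 of 8 loci with a shared site, 5 shared sites at these loci and 19 of 30 further liver regulators with one. A window of 100 kb gave 5 loci, against 62.6% of all genes, 8 sites and 22 regulators, adding Foxa1, Onecut1 and another site at Hnf4a. A window of 10 kb gave 2 loci, against 26% of all genes, 2 sites (1 each at Foxa3 and Cebpa) and 9 regulators. The top 10000 summits of each list left 1 locus, against 32% of all genes, with 1 site, at Cebpa, and 12 regulators. Counting a site only for its nearest protein-coding gene left 2 loci and 2 sites. Where 1 replicate is left out, every summit of the other counts. Without replicate 2 there were 5 of 8 loci, 15 sites and 25 of 30 regulators, against 70.2% of all genes with a replicate 1 summit. Without replicate 1 there were 6 of 8 loci, 20 sites and 27 of 30 regulators, against 73.4% of all genes with a replicate 2 summit. Other distances for sharing (50, 200 and 500 bp) and a score of 5 or more gave 3 to 4 loci, 4 to 7 sites and 15 to 21 regulators. For these settings and the nearest-gene assignment the share of all genes was not computed, so these counts have no background beside them. No paired analysis was possible because there is only 1 group. Depth is unknown, so a locus without a summit is one where none was called, not one shown to lack binding.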
